A study of Homo sapiens with 2 samples.

Results

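The WNT ligand genes encode secreted, lipid-modified signalling proteins, and 10 of them were read for H3K27me3 in HCT116, an established human colorectal carcinoma cell line. The members were chosen by name and by gene span on hg19, by a rule that uses no measured value, though with earlier results of these data known. The members are WNT1, WNT10B, WNT3, WNT3A, WNT9A, WNT6, WNT10A, WNT5A, WNT11 and WNT7B. They are 10 of the 19 WNT ligand genes, and of 20052 protein-coding genes, in the RefSeq gene table. No hg19 annotation was used, so the other 9 (WNT2, WNT2B, WNT4, WNT5B, WNT7A, WNT8A, WNT8B, WNT9B and WNT16) were not analysed here, and bins within a span are not assigned to exons or introns. The series held 1 group of 2 ChIP-seq libraries, described as biological replicates of HCT116 cells, with no treatment or genotype named, cultured in McCoy's medium with serum and immunoprecipitated with 1 antibody against H3K27me3. No input library was used, so copy number, mappability and base composition are not corrected in any level. A histone mark gives no RNA level, and the identity of the cell line was not checked.

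WNT proteins bind Frizzled receptors, with LRP co-receptors in the pathway that stabilises beta-catenin, and in the gut this pathway maintains the stem cells of the crypt. H3K27me3 is placed by Polycomb repressive complex 2 and is known to mark silent developmental genes, often at CpG-rich starts. WNT1, WNT3 and WNT3A are classical activators of beta-catenin signalling, while WNT5A and WNT11 are best known for signalling without beta-catenin. The members include 3 pairs of close neighbours: WNT10B with WNT1, WNT6 with WNT10A, and WNT9A with WNT3A, between which the gene table lists LOC124904532.

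Each member covers its span and 5 kb on either side, or 372 distinct bins of 1 kb in all. Of these, 370 are among the 2600564 autosomal bins with a read in either library. The windows of WNT1 and WNT10B share 4 bins, as do those of WNT6 and WNT10A. The level of a bin is its read count over the library's mean per listed autosomal bin, which was 22.0 reads in replicate 1 and 37.5 in replicate 2, and a bin with no read counts as 0. The median listed bin stood at 0.409 and 0.373, and total depth was 53187504 and 97031399 reads. At 2-fold, a single bin holds 44.0 and 75.1 reads, with a counting error of 15.1% and 11.5% if reads were independent.

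The sequences shown are the 250 bases before the start of 4 members: the highest and the lowest level in the 5 kb around the start (WNT6 and WNT5A), and the next on either side among those with an entry (WNT3 and WNT3A). They are from RefSeq, on GRCh38.p14, a build other than that of the reads, and run 5′ to 3′ in the direction of transcription. Capitals mark CG dinucleotides, read in both strands alike.
WNT6, plus strand, chr2:218859555-218859804: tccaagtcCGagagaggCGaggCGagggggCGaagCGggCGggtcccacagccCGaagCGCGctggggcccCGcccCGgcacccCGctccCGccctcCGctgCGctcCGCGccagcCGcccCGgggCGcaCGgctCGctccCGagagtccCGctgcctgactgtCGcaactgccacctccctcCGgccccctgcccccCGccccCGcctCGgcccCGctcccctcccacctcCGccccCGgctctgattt
WNT3, minus strand, chr17:46818693-46818942: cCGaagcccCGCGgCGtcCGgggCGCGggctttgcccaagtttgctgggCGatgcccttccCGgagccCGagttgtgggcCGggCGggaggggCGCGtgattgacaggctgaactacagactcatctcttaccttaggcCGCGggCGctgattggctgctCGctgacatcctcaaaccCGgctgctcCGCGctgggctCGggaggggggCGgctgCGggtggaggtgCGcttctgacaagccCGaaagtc
WNT3A, plus strand, chr1:228006748-228006997: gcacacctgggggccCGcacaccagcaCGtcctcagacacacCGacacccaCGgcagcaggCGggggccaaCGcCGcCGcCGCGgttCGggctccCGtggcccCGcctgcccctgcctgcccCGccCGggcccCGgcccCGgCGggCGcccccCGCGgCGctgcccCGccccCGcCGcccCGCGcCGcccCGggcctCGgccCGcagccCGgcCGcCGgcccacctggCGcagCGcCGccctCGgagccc
WNT5A, minus strand, chr3:55487307-55487556: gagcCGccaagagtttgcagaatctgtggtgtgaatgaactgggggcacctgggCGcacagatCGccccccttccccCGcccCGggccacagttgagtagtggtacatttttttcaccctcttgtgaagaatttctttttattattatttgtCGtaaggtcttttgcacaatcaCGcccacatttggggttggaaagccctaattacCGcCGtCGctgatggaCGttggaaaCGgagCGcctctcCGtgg

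The stretch before WNT6 held 32 CG, that before WNT3 held 26, that before WNT3A held 38 and that before WNT5A, at the more upstream of its 2 listed starts, held 14. The median of 35116 RefSeq promoters cut to the same 250 bases was 11, and 93.9% held at least 1. RefSeq entries matched 7 of the 10 members, and the other entries were WNT1 with 29 CG, WNT9A with 44 and WNT10A with 24. All 7 thus lay above the median count. G and C made up 79.2% of the stretch of WNT6, 86.0% of that of WNT3A and 52.8% of that of WNT5A.

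H3K27me3 over these genes was patchy, and most of them stood under the autosomal mean. The mean level of each stood above the median listed bin, though a few high bins can lift a mean. By the median of a member's own bins, WNT10B alone fell under it, at 0.320 against 0.373 in replicate 2. WNT6 had the highest mean level, 2.03 ± 0.104, followed by WNT1 at 1.65 ± 0.0173 and WNT3A at 1.61 ± 0.0724 (SD, n = 2 for each level given so). An SD of 2 values can fall under the counting error, so it may understate how uncertain a level is. With the dispersion of 2.52 between the libraries, that error was 0.112 in replicate 1 and 0.0862 in replicate 2 for WNT1. For WNT6 it was 0.0947 and 0.0751, under its SD. The first place depended on the flanks: WNT3A stood above WNT6 without flanks (1.78 and 1.75) and with flanks of 20 kb (1.42 and 1.29 in replicate 1, 1.48 and 1.38 in replicate 2). The other 7 stayed under the autosomal mean in both libraries, down to 0.498 ± 0.0209 at WNT5A and 0.481 ± 0.0266 at WNT9A. None of the 10 reached 2-fold in both libraries, while 14.0% to 14.9% of autosomal windows of the members' lengths did. With only 10 members, a count of 0 is close to that share. Scaled to the median listed bin in place of the mean, 6 of them reached 2-fold, against 31.6% to 32.3% of the windows. The place of the members against the background thus depended on the scaling. WNT6 came nearest, with 1.96 in replicate 1 and 2.11 in replicate 2, where 14.6% of windows of its length reached 2-fold in both. The median member stood at 0.846.

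**Figure D1:**
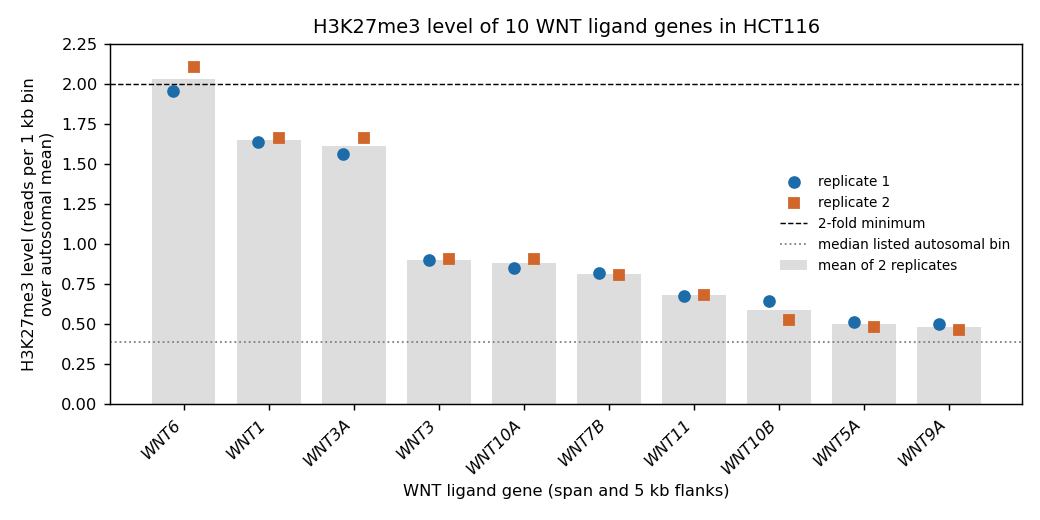
H3K27me3 level (reads per 1 kb bin over the autosomal mean, y axis) of the 10 WNT genes with 5 kb flanks (x axis), as circles for replicate 1, squares for replicate 2 and grey bars for their mean. WNT6, WNT1 and WNT3A stand above 1-fold in both libraries, and the other 7 below it; the dashed line is 2-fold and the dotted line the median listed bin.

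In the order of means, the library values of WNT1 and WNT3A overlapped, as did those of WNT3 and WNT10A, and of WNT5A and WNT9A. Neighbours in the order without overlap were WNT6 over WNT1, with 0.297 between their nearest library values, and WNT3A over WNT3, with 0.657. WNT10A, WNT7B, WNT11, WNT10B and WNT5A followed each other with gaps of at most 0.122. An exact permutation test of 2 against 2 library values cannot go below p = 0.333, so none was used to rank members. All 10 lay above the middle of the genome in rank, from percentile 54.4 (WNT9A) to 85.0 (WNT6) among autosomal windows of the same length.

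A bin was called enriched at a Benjamini-Hochberg adjusted Poisson p under 0.05 and at least 2-fold, in both libraries. By this rule 33 of the 372 bins (8.87%) were enriched, against 12.7% of autosomal bins. At 3-fold 15 member bins were enriched, against 7.64% of autosomal bins, and at 1.5-fold 56, against 16.4%. Of the 33 bins at 2-fold, WNT3A held 13, WNT6 held 7, WNT3 held 5, WNT7B held 4, WNT1 held 3, and WNT10A and WNT11 held 1 each; the bin of WNT10A is also one of WNT6. WNT10B, WNT9A and WNT5A held none. The median enriched bin of the members stood at 3.14 in replicate 1 and 3.25 in replicate 2, beside 3.59 and 3.81 over all enriched autosomal bins.

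WNT1, the founding member of the family, carried the mark at its end rather than at its start. Its span, on chromosome 12 from 49372001 to 49377000, begins with a bin of 10 reads in replicate 1 and 25 in replicate 2, a level of 0.455 and 0.666. From the last bin of the span the level stood at 3.68 and 4.32, then 3.73 and 3.76, and 4.36 and 4.69 in the highest bin, 6 kb beyond the start bin. These 3 bins are high in both libraries, and no other bin of WNT1 was enriched. With gaps of up to 3 bins joined they belong to a stretch of 7 kb, from 49376001 to 49383000, which runs past the window and is cut there in the values above. The neighbour beyond WNT1 in the gene table is DDN, a gene of neurons and kidney podocytes.

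WNT3A, a ligand much used to activate beta-catenin signalling, had its highest bins inside the span, far from the start. The span lies on chromosome 1 from 228194001 to 228249000, and its start bin held 2 reads in replicate 1 and 1 read in replicate 2. Between 33 and 38 kb from the start, 6 neighbouring bins from 228227001 to 228233000 stood at 4.62 and 5.06 on average. Each of these 6 bins was at least 3.78-fold in both libraries, and the bins on either side fell below 2-fold. Smaller stretches lay at 18 to 21 kb (2.36 and 2.60), at 43 kb (3.18 and 3.04) and at 49 to 51 kb (3.06 and 3.07). The WNT3A span as a whole averaged 1.78 ± 0.0994, while its 3′ flank averaged 0.518 ± 0.0512. Enriched stretches touched the window from outside on both sides. Upstream, 1 kb stood at 2.14 in replicate 1 and 2.61 in replicate 2. Downstream, 2 kb stood at 3.14 and 3.12.

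WNT3, the ligand that Paneth cells make in the small intestinal crypt, stood under the autosomal mean, with a few isolated enriched bins. Its level was 0.897 in replicate 1 and 0.905 in replicate 2 over 66 kb, with the span on chromosome 17 from 44841001 to 44897000. Enriched bins lay 2 kb from the start (2.23 and 2.18), at 26 to 27 kb (2.41 and 2.08) and at 41 to 42 kb (2.48 and 2.98). None of these stretches was longer than 2 kb. On the upstream side, toward WNT9B in the gene table, a stretch of 27 kb began 60 kb beyond the window, from 44962001 to 44989000, at 3.60 and 3.80. On the downstream side, toward NSF, the nearest enriched bin beyond the window was 483 kb away. The mean level of chromosome 17 was 1.34 in both libraries, so WNT3 stood at 0.674 of it.

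**Figure D2:**
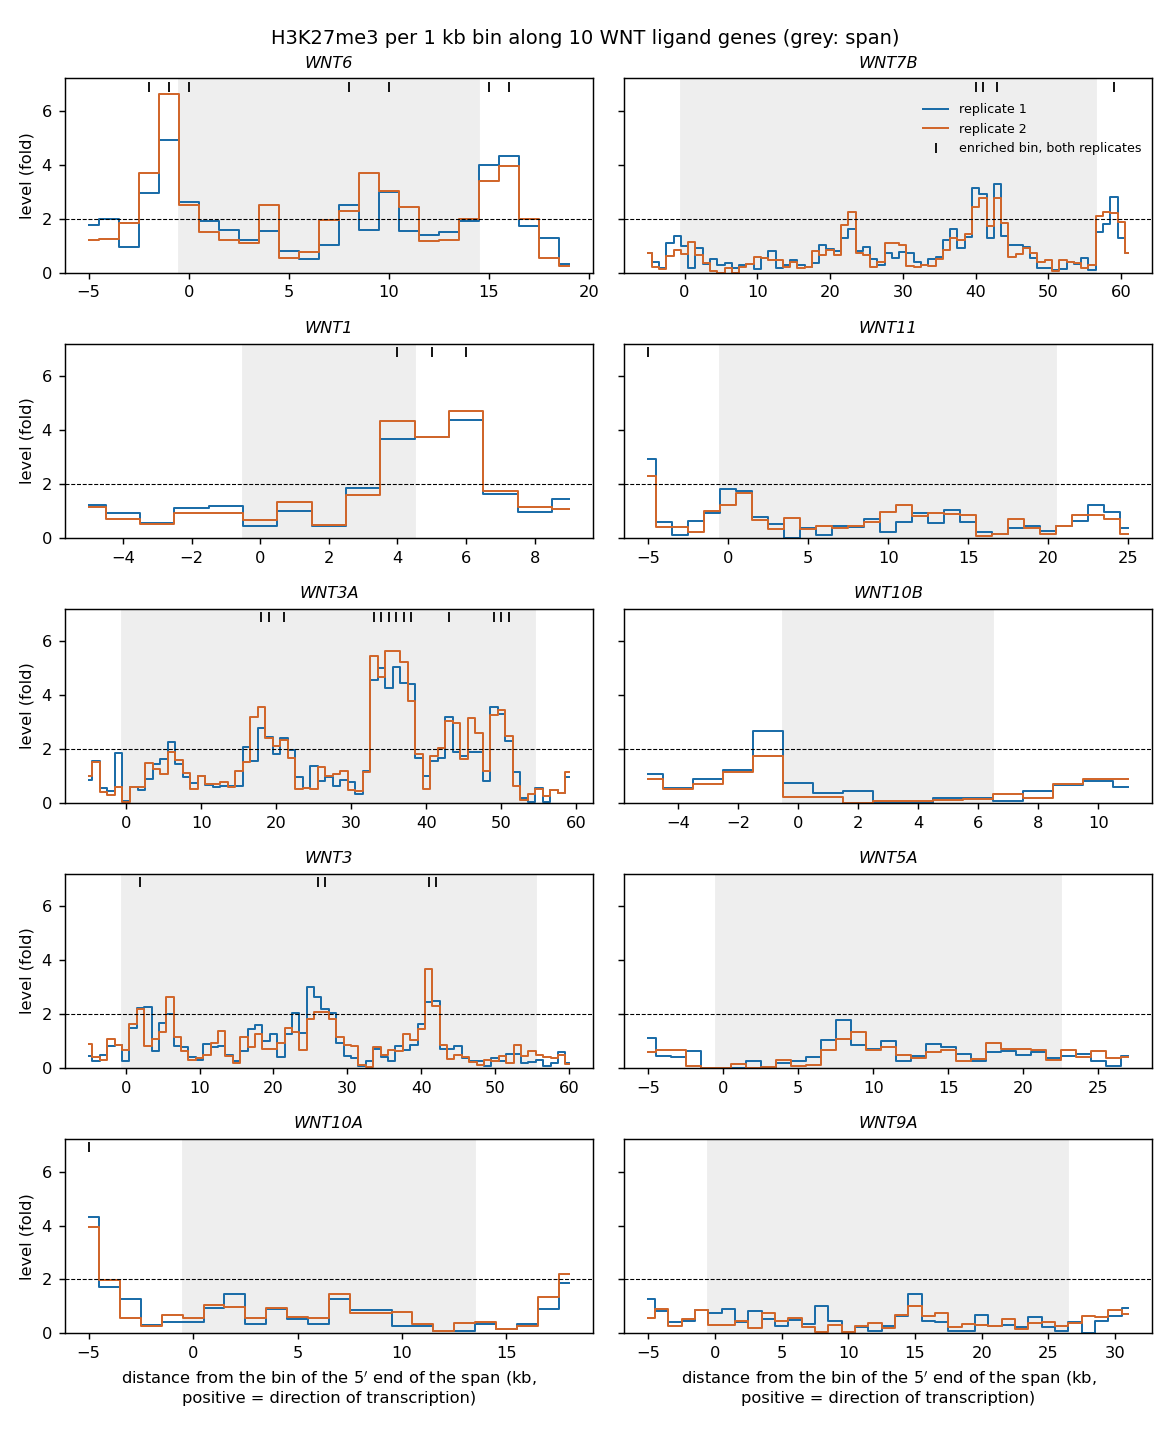
H3K27me3 level (fold over the autosomal mean, y axis) per 1 kb bin against distance from the bin of the 5′ end of the span (kb, x axis, positive in the direction of transcription), replicate 1 in blue and replicate 2 in orange. Grey marks the span, ticks mark bins enriched in both libraries and the dashed line is 2-fold; the highest bins lie 36 kb into WNT3A, 6 kb from the start of WNT1 and 1 kb before WNT6.

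WNT6, a ligand needed for somite epithelia, was the only member of the 10 whose start was enriched. Its span is on chromosome 2 from 219724001 to 219739000. The bins from 2 kb before the start to the start bin stood at 2.95, 4.91 and 2.64 in replicate 1 and at 3.68, 6.61 and 2.50 in replicate 2. The highest of them, just before the start, held 108 and 248 reads and was the highest bin of any member. A second rise lay within the span at 8 to 10 kb (2.36 and 2.99), and another at 15 to 16 kb, directly past the span (4.16 and 3.66). With gaps of up to 3 bins joined, these were 3 stretches of 2 to 3 kb. With gaps of up to 10 bins they joined into 1 of 19 kb. The ground around WNT6 was marked as well. Outside its window and within 100 kb of its span, a zone that includes WNT10A, the level was 1.705 and 1.817. There 29.5% of 190 bins were enriched, beside 28.0% of the bins of WNT6 itself. The same zone stood at 0.539 and 0.558 around WNT1, and at 0.6999 and 0.6805 around WNT3A.

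WNT10A, a ligand of tooth and hair development, lies downstream of WNT6 on chromosome 2, from 219745001 to 219759000. The only enriched bin of its window, 5 kb before the start at 4.32 and 3.94, belongs to the stretch shared with WNT6. Its span averaged 0.623 in replicate 1 and 0.710 in replicate 2, with no enriched bin of 14. The ground around it was richer: outside the window and within 100 kb of the span, a zone that includes WNT6, the level was 2.05 and 2.18, and 37.9% of 190 bins were enriched. Directly past the window a stretch of 6 kb from 219764001 to 219770000 stood at 3.28 and 3.85, on the side where the gene table places CDK5R2. WNT10A was therefore a trough between marked stretches in both libraries.

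WNT10B, a ligand that favours bone over fat formation, had almost no mark over its span, on chromosome 12 from 49359001 to 49366000. The 7 bins of the span averaged 0.273 in replicate 1 and 0.126 in replicate 2. The bin just before the start stood at 2.68 in replicate 1 and 1.76 in replicate 2, so that it passed 2-fold in 1 library alone. Among the members WNT10B also differed most between the libraries over the whole window, at 0.647 and 0.523.

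WNT9A, which acts in joint formation, had the lowest mean level of the members. Its window held 407 reads in replicate 1 and 642 in replicate 2 over 37 kb, a level of 0.500 and 0.462, with the span on chromosome 1 from 228109001 to 228136000. The highest bin, 15 kb into the span, reached 1.45 and 1.01. Marked ground lay close by on the downstream side, where a stretch of 2 kb stood at 3.05 and 3.45, 3 kb beyond the window.

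**Figure D3:**
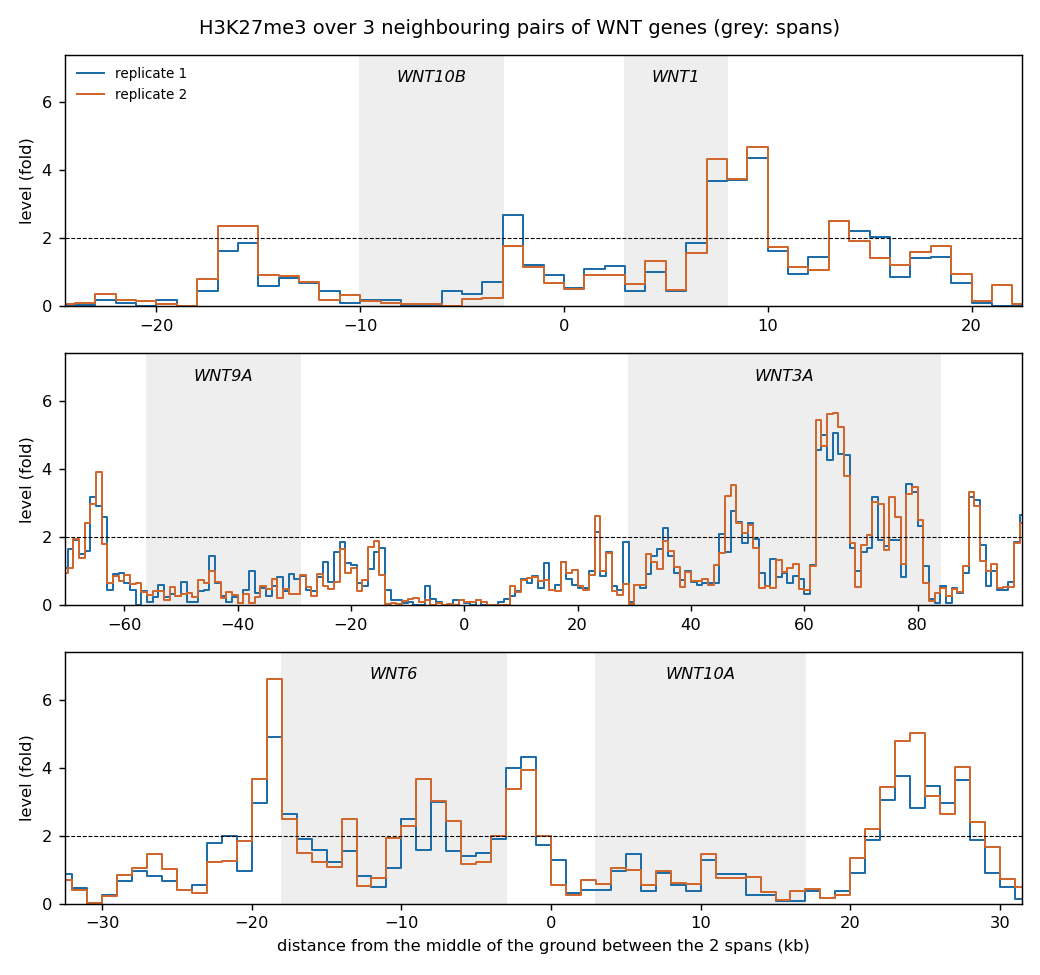
H3K27me3 level (fold over the autosomal mean, y axis) across the 3 neighbouring pairs, against distance from the middle of the ground between the spans (kb, x axis, in genome orientation), replicate 1 in blue and replicate 2 in orange, with spans in grey. Within their spans WNT1, WNT3A and WNT6 carry bins above 2-fold in both libraries, while WNT10B, WNT9A and WNT10A stay under 2-fold. Beside its span WNT10A has a bin at 4.32 and 3.94, which is also in the window of WNT6. The bin just before WNT10B stands at 2.68 and 1.76.

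In each of the 3 pairs 1 gene stood higher than its neighbour in both libraries, read with flanks of 5 kb. WNT1 exceeded WNT10B by 0.989 in replicate 1 and 1.14 in replicate 2, a difference of 1.06 ± 0.105. WNT3A exceeded WNT9A by 1.13 ± 0.0987, and WNT6 exceeded WNT10A by 1.15 ± 0.0637 (SD, n = 2). In ratio the higher gene stood 2.30 to 3.60 times above its neighbour in these libraries. With flanks of 5 kb the differences were larger than the spread between the libraries, and with 2 libraries no test between genes was run. With flanks of 20 kb, where the 2 windows share 34 bins in each of the pairs WNT6 with WNT10A and WNT1 with WNT10B, WNT10A exceeded WNT6 by 0.0425 and 0.148, and WNT1 exceeded WNT10B by 0.0976 and 0.123. Without flanks WNT6 exceeded WNT10A by 1.02 and 1.15. Between the spans, the 6 kb from WNT10B to WNT1 averaged 1.27 and 0.986, the 58 kb from WNT9A to WNT3A 0.620 and 0.556, and the 6 kb from WNT6 to WNT10A 2.01 and 1.81.

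WNT7B, a ligand of lung and kidney development, stood under the autosomal mean over its 67 kb window. Its level was 0.818 in replicate 1 and 0.804 in replicate 2, with the span on chromosome 22 from 46316001 to 46373000. Its marked bins lay toward the end of the span, in a stretch of 4 kb at 40 to 43 kb from the start (2.65 and 2.42), and 59 kb from the start in the 3′ flank (2.82 and 2.21). The 3′ flank averaged 1.73 ± 0.149 and the 5′ flank 0.628 ± 0.179.

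WNT5A, the ligand best known for polarity signalling without beta-catenin, had the emptiest start of the 10. The start bin and the bin before it held 0 reads in both libraries; a count of 0 allows up to 3 reads, a level of 0.136 and 0.0799, for counting error only. The 5 kb around the start held 20 reads in replicate 1 and 9 in replicate 2, at 0.182 and 0.0480. Over the whole window, with the span on chromosome 3 from 55499001 to 55522000, the level was 0.512 and 0.483. WNT5A was also the only member with no enriched bin within 100 kb of its span: the nearest stretches lay 602 kb and 638 kb beyond its window. At 39.5 kb the gene model of the RefSeq table is longer than the span of 23 kb used here, so that other starts can lie outside the span.

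WNT11, another ligand of polarity signalling, was even between the libraries at 0.676 and 0.682, with the span on chromosome 11 from 75897001 to 75918000. Its start bin and the next stood at 1.82 and 1.73 in replicate 1 and at 1.23 and 1.65 in replicate 2, short of 2-fold. The single enriched bin of its window lay 5 kb before the start, at 2.91 and 2.29.

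Read over the 5 kb centred on the start, the members other than WNT6 stayed under 2-fold in both libraries. WNT6 stood at 2.80 in replicate 1 and 3.10 in replicate 2, WNT3 at 1.14 and 1.29, and WNT11 at 1.17 and 0.954. The values of WNT10B were 1.09 and 0.671, those of WNT7B 0.909 and 0.783, and those of WNT1 0.836 and 0.858. WNT10A had 0.709 and 0.714, WNT9A 0.682 and 0.506, and WNT3A held 77 and 79 reads there, a mean level of 0.560. Thus 1 of 10 starts reached 2-fold in both libraries, against 14.6% of autosomal windows of 5 kb, a share near the background; scaled to the median bin, 5 starts did, against 30.4% of windows. WNT5A was the only start under 0.5-fold in both, as were 57.9% of autosomal windows of 5 kb with a read in either library, and it ranked at percentile 11.7 of those windows. The other starts ranked from percentile 63.2 (WNT3A) to 91.2 (WNT6) of the same windows.

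The highest bin of a member lay within 2 kb of the start bin in 2 of 10, WNT6 and WNT10B. It lay 5 kb before the start in WNT10A and WNT11, in the span in WNT3, WNT3A, WNT9A, WNT5A and WNT7B, and past the span in WNT1. Both libraries had their own highest bin at the same place in 8 of 10, the exceptions being WNT3 and WNT5A. The stretches of WNT6 and WNT5A printed above are those at either end of this order of starts. The CG count did not follow the level across all entries: the stretch of WNT9A, with 44 CG, belongs to a start at 0.594 ± 0.124, and that of WNT3A, with 38 CG, to one at 0.560 ± 0.197. The part of base composition in the number of reads at these starts was not tested.

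**Figure D4:**
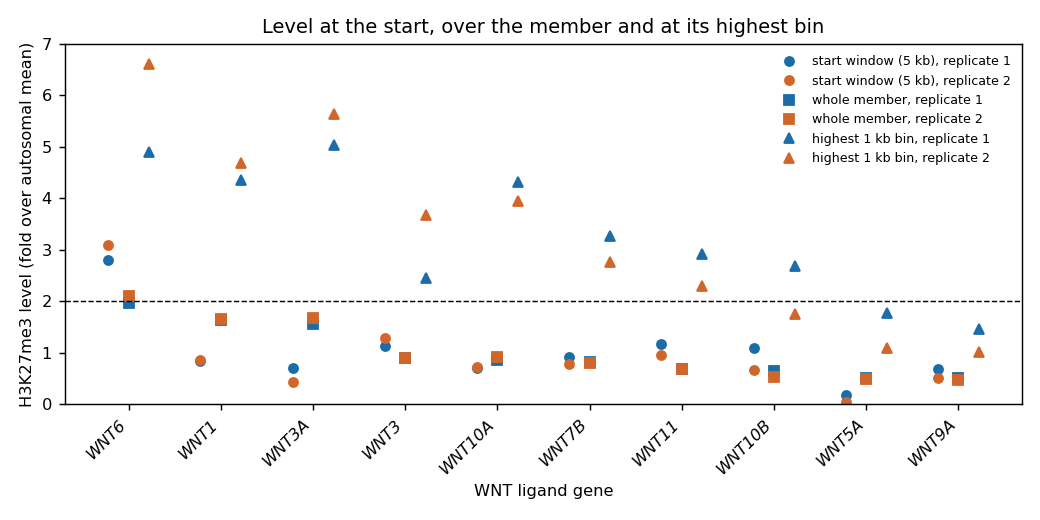
H3K27me3 level (fold over the autosomal mean, y axis) of each member (x axis) in the 5 kb start window (circles), over the whole member (squares) and in its highest 1 kb bin (triangles), replicate 1 in blue and replicate 2 in orange. In WNT1 and WNT3A the highest bin stands above 4-fold while the start window stays under 1-fold; in WNT6 the start window itself is above 2-fold.

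The stretches of enriched bins at these genes were short. With gaps of up to 3 bins joined, 14 distinct stretches overlapped the windows of the members, the longest being the 7 kb at WNT1 and the 6 kb at WNT3A. Stretches that only touch a window from outside are not among them. Autosomal stretches joined in the same way had a median length of 4 kb, and their 90th percentile was 28 kb. By this joining no stretch longer than 7 kb overlapped the window of a member, while stretches of 26 kb, at 2.78 and 2.90 and at 2.85 and 2.93, lay on either side of WNT6 and WNT10A.

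Both libraries gave similar profiles over these genes. Across the 372 bins, which are not independent and share both libraries, Pearson's r of levels was 0.913 and Spearman's rho 0.829. A two-sided exact binomial test per bin, on counts divided by the dispersion of 2.52 between the libraries and Benjamini-Hochberg adjusted over all autosomal bins, called 0 member bins different, as it did 0% of autosomal bins. As that test called no bin anywhere, its result says nothing about the members in particular. At an unadjusted p under 0.05 there were 11 member bins (2.96%), against 1.84% of the autosomal bins tested. On counts as deposited the same test called 13, against 2.45% of autosomal bins.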

How the data were processed

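The members and lists were chosen with earlier results of these data known. For each replicate the authors deposited 1 file of unnormalised read counts in bins of 1000 bases, and bins without a read are not listed. Per the submitters' processing notes, BWA 0.7.12 and hg19 (GRCh37) were used for alignment; which counter and which filters were used is not given in the sources used here. Spans are whole kb on hg19, and the direction of WNT10B, WNT11 and WNT7B is from general knowledge.

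Levels, Poisson calls, binomial tests and background shares were computed over all autosomes with Python 3.11.15, numpy 2.4.6, pandas 2.3.3 and scipy 1.17.1; figures used matplotlib 3.10.9. Background windows needed 90% of bins listed, except in the ranks of start windows and the share under 0.5-fold, which needed 1 bin. Both tests were run on simulated counts. For the binomial test these had no extra dispersion and were not divided, so the divided form was not tried. The dispersion was taken over bins of at least 20 reads; it absorbs real differences too. All 10 members are named; promoter sequence was printed by level at the start. The ± values are the SD of the 2 library values, and the limits for a count of 0 cover counting error only. The Poisson p and the binomial p on deposited counts cover counting error alone; the spread between the libraries may be technical.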

Additional observations from a re-analysis of the deposited data

How the results depend on the processing

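Scaled to the median listed bin, 6 members in place of 0 reached 2-fold in both libraries, 134 bins in place of 33 were enriched, against 26.7% of autosomal bins so scaled, and 5 starts in place of 1 reached 2-fold. Against their backgrounds these counts lay higher on this scaling than on the main one. At a minimum of 1.5-fold there were 3 members and 56 enriched bins; at 3-fold there were 15 enriched bins and 0 starts; with no fold minimum 58 bins were enriched. The 56 and 15 bins stand against 16.4% and 7.64% of autosomal bins. For the 3 members, the 0 starts and the 58 bins no autosomal share was computed, so they are not read against the genome. Scaled to the mean of its chromosome, 1 member (WNT6) reached 2-fold. With a replicate left out the number of members ranged from 0 to 1: WNT6 passed in replicate 2 alone, which is without replicate 1. For the chromosome scaling and the single replicates no autosomal share was computed either, so these counts are not read against the genome. Bins differing between the libraries were 13 on counts as deposited in place of 0. The causes were not tested. WNT6, WNT1 and WNT3A remained the highest 3 with other scalings, without flanks, with medians over bins and with listed bins only, a setting added after seeing the data. WNT6 led among them except without flanks, where WNT3A did. With flanks of 20 kb WNT3A led, WNT10A (1.43) replaced WNT1 (1.05) and stood above WNT6, and WNT10B rose from 0.585 to 0.945. Without flanks WNT10B was the lowest at 0.199. At a gap of 10 bins the longest stretch became 37 kb at WNT3A and 19 kb at WNT6 and WNT10A. No paired analysis was possible because the series has a single group.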
